A study of Homo sapiens with 12 samples.

Results

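RNA was sequenced from HL60 cells held for 48 h in 1 µM palbociclib, an inhibitor of CDK4 and CDK6 (CDK4/6i), alone or together with 1 µM all-trans retinoic acid (ATRA). The comparison described here is CDK4/6i+ATRA against CDK4/6i, so that both groups carried the inhibitor and only ATRA differed. It used 6 of the 12 libraries of the series, 3 per group, which are labelled as biological replicates. The other 6 libraries, 3 of non-treated cells and 3 of cells given 1 µM ATRA alone, entered the same model and gave the effect of ATRA without the inhibitor. Of the 59251 genes in the count table, 25447 had at least 1 count in the 6 libraries, and 13318 passed the expression filter and were tested.

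HL60 is a human myeloid leukemia line grown from 1 patient, described by the series as promyelocytic and by the study as negative for the PML-RARA fusion. All 4 groups were one line grown in suspension culture, without stroma or other cells, so that the groups differ in drug and not in genetic background.

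ATRA is the natural ligand of the retinoic acid receptors (RARs), which sit on response elements in DNA as dimers with RXR and switch from repressing to activating genes when the ligand binds. In myeloid progenitors this drives granulocytic differentiation, with loss of primary granule and progenitor genes, gain of adhesion and oxidase genes and exit from the cell cycle. Palbociclib blocks the kinases CDK4 and CDK6, so that the RB protein keeps E2F factors from turning on genes of DNA replication.

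The cell identity was checked on marker genes. In CDK4/6i-treated cells *MPO*, the peroxidase of primary granules, was read at 3543, 3451 and 3414 CPM, where CPM is the count scaled by library size after TMM normalization for composition. *CD33*, a myeloid surface antigen, was at 118.5 ± 3.43 CPM (SD, n = 3). Of the other tested promyelocyte markers, *MYB* was at 370 CPM on average, but *CTSG* and *KIT* at only 3.26 and 4.91 CPM. The promyelocyte list summed to 3910 to 4036 CPM with CDK4/6i. All 7 eosinophil and basophil genes passed the expression filter and summed to more, 8215 to 8445 CPM, mostly from *PRG2*. Of the markers of other lineages, 1 of 8 erythroid, 2 of 7 T-cell, 2 of 5 B-cell, 0 of 4 NK-cell, 1 of 6 megakaryocyte and 2 of 5 dendritic-cell genes passed the expression filter. The summed level was 7.70 to 9.13 CPM with CDK4/6i and 2.02 to 3.298 CPM with CDK4/6i+ATRA for the erythroid list, all but wholly from the erythropoietin receptor gene *EPOR*, and 233 to 242 and 260 to 270 CPM for the T-cell list, nearly all from *CD4*, which myeloid cells also express. It was 22.7 to 24.2 and 13.1 to 18.2 CPM for the B-cell list, mostly from *CD79A*, and at most 0.367 CPM for the NK-cell list. The megakaryocyte list was at 7.26 to 9.29 and 8.91 to 11.7 CPM, mostly from *ITGA2B*, and the dendritic-cell list at 3.42 to 4.71 and 0.981 to 2.29 CPM, where the progenitor receptor gene *FLT3* was 4.84-fold lower. The defining genes *HBA1*, *HBB*, *CD3D*, *CD8A*, *TRAC*, *MS4A1* and *NCAM1* had no count in any of the 6 libraries, and *CD3E*, another T-cell gene, was at 2.99 and 0.813 CPM on average with CDK4/6i and CDK4/6i+ATRA. The primary granule genes *ELANE*, *PRTN3* and *AZU1* were listed at 0 throughout. They are among the genes that the table places on a chromosome and also on alternate or patch contigs (called alternate contigs here), and their levels could not be read.

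The CDK4/6i libraries held 15576806 to 18679544 counts and the CDK4/6i+ATRA libraries 12230923 to 14415276. A floor of 3 counts in every library corresponded to 0.171 CPM in the CDK4/6i group and 0.263 CPM in the CDK4/6i+ATRA group, and folds against a group at the floor are given as lower bounds that cover counting error only. Genes of the mitochondrial genome took 2.63% ± 0.182 (SD, n = 3) of the counts with CDK4/6i and 5.59% ± 0.827 (SD, n = 3) with CDK4/6i+ATRA. On the first principal component, which held 92.2% of the variance, the groups were separate. CDK4/6i+ATRA replicate 1 stood apart from the other two on the second (2.42% of the variance, −28.5 against 13.95 and 14.65). It also had the lowest mitochondrial share of its group, 4.64% against 6.04% and 6.10%. Without it, 10273 of 13651 genes tested were changed, against 10473 of 13318 with it.

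ATRA changed most of the expressed genes of CDK4/6i-treated cells. Of the genes tested, 10473 (78.6%) were changed at an adjusted p-value under 0.05 after Benjamini-Hochberg correction of edgeR's quasi-likelihood test, 5212 higher (39.1%) and 5261 lower (39.5%). Of these, 5131 changed at least 2-fold, 2478 upward (18.6% of those tested) and 2653 downward (19.9%), and 3097 of the changed genes moved less than 1.5-fold. The larger changes were more often rises, with 381 rises and 162 falls of at least 16-fold. The 3 libraries of one group lay entirely above those of the other in 10511 genes (78.9%). The spread between libraries of a group was small, with a common biological coefficient of variation of 3.70%. The split of rises and falls depended on the scaling, since with library size alone 36.7% of the changed genes were higher rather than 49.8%, and the median of all genes moved from 0.00 to −0.28 on the log2 scale. With changes this widespread, a share of called genes near 78.6% in a gene group describes the background. In bulk RNA, fewer cells expressing a gene and less of it per cell cannot be told apart.

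**Figure D1:**
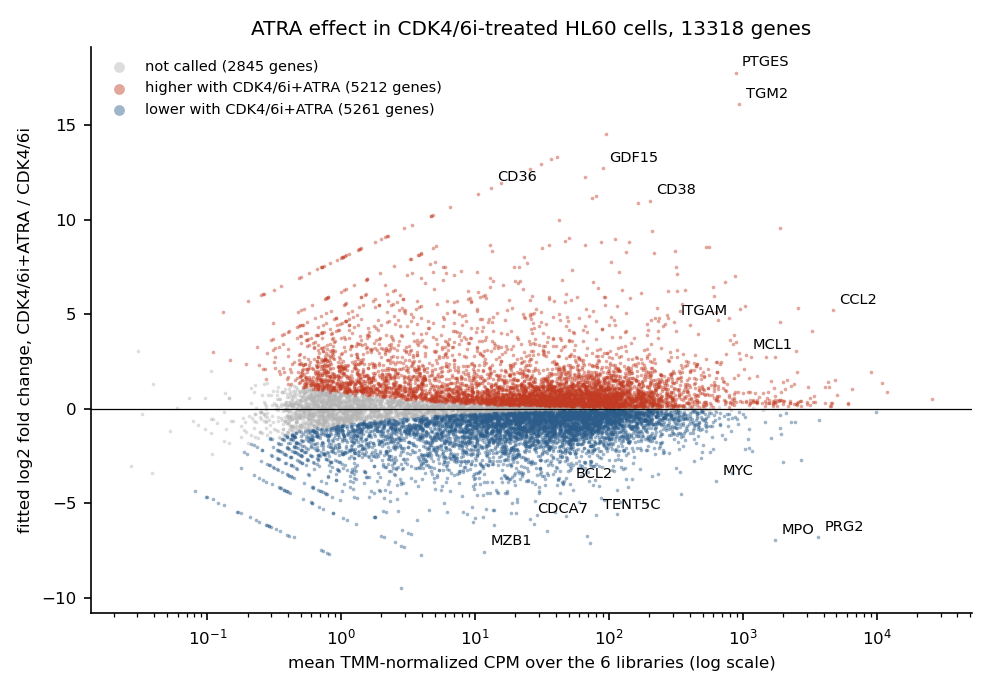
Each point is 1 of the 13318 genes tested. The horizontal axis is the mean TMM-normalized CPM over the 6 libraries on a log scale and the vertical axis the fitted log2 fold change of CDK4/6i+ATRA against CDK4/6i. Red points (5212) were higher, blue points (5261) lower and gray points (2845) not called. Folds of the genes at the top, such as *PTGES* and *TGM2*, are fitted against groups at or near 0 counts, and the text gives lower bounds for them.

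The largest rises were of genes that were silent under CDK4/6i. *PTGES*, the terminal synthase of prostaglandin E2 (hg38, chr9:129738349-129753042, minus strand), had no count in the 3 CDK4/6i libraries and 1667, 1781 and 1836 CPM with CDK4/6i+ATRA. *TGM2*, a transglutaminase that is a classical ATRA target in myeloid cells (chr20:38127385-38168475, minus strand), had 0, 1 and 0 counts with CDK4/6i and 1846, 1883 and 1922 CPM with CDK4/6i+ATRA. Both were thus off without ATRA and strongly on with it, at least 10272-fold and 10986-fold higher. Other genes that rose from the floor were *DHRS3*, a retinaldehyde reductase (at least 1108-fold), *GDF15*, a stress-induced cytokine (at least 1052-fold), *LIF*, a cytokine of the IL-6 family (at least 925-fold), *SELP*, the platelet selectin (at least 867-fold), and *MERTK*, a receptor kinase for the uptake of dying cells (at least 769-fold). *PTPRN2-AS1*, *ADGRE3*, *ADAMTS14*, *FAM20C*, *CHST15*, *CD36* and *LRRC32* rose at least 474-, 434-, 363-, 300.3-, 182-, 152- and 123-fold. *PTPRN2-AS1* is an antisense gene, and whether reads were counted by strand is not given in the sources used here. In all, 209 of the genes called higher were at the floor in the CDK4/6i group.

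The 15 largest falls by fitted fold change included genes of granule proteins. *MPO* (chr17:58269855-58280935, minus strand) fell from the values given above to 25.5, 24.5 and 33.9 CPM. *PRG2*, the major basic protein of eosinophil granules (chr11:57386780-57390650, minus strand), was at 7089, 7226 and 7299 CPM with CDK4/6i, where it took the fourth most counts of any gene, and at 61.7, 61.1 and 71.3 CPM with CDK4/6i+ATRA. The groups were far apart for both genes, which were 123.5-fold and 111-fold lower. *GPR183*, an oxysterol receptor that guides cell migration, was 134.8-fold lower, *RNASE2*, the eosinophil-derived neurotoxin, 105.5-fold lower, and *MZB1*, an endoplasmic reticulum cochaperone, at least 88.8-fold lower. *UNC5C*, *LOC107984606*, *HPDL*, *SEMA3G*, *CDCA7*, *BCL11A*, *NEIL3*, *SLC25A10*, *PRRT4* and *TENT5C* completed the 15 largest falls, between 49.1-fold (*TENT5C*) and 88.8-fold (*UNC5C*). *CDCA7* helps to keep DNA methylated, *NEIL3* repairs oxidized bases and DNA crosslinks, and *BCL11A* is a repressor of fetal globin.

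Among the most abundant transcripts, *EEF1A1*, *ACTB* and the mitochondrial *COX1* were in the 5 that took the most counts in both groups, and *EEF2* and *PRG2* with CDK4/6i. In CDK4/6i+ATRA-treated cells *RNR2*, the large mitochondrial ribosomal RNA, and *CCL2*, a monocyte chemoattractant, took their places. *CCL2* went from 267, 259 and 226 CPM to 9182, 9239 and 9234 CPM.

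**Figure D2:**
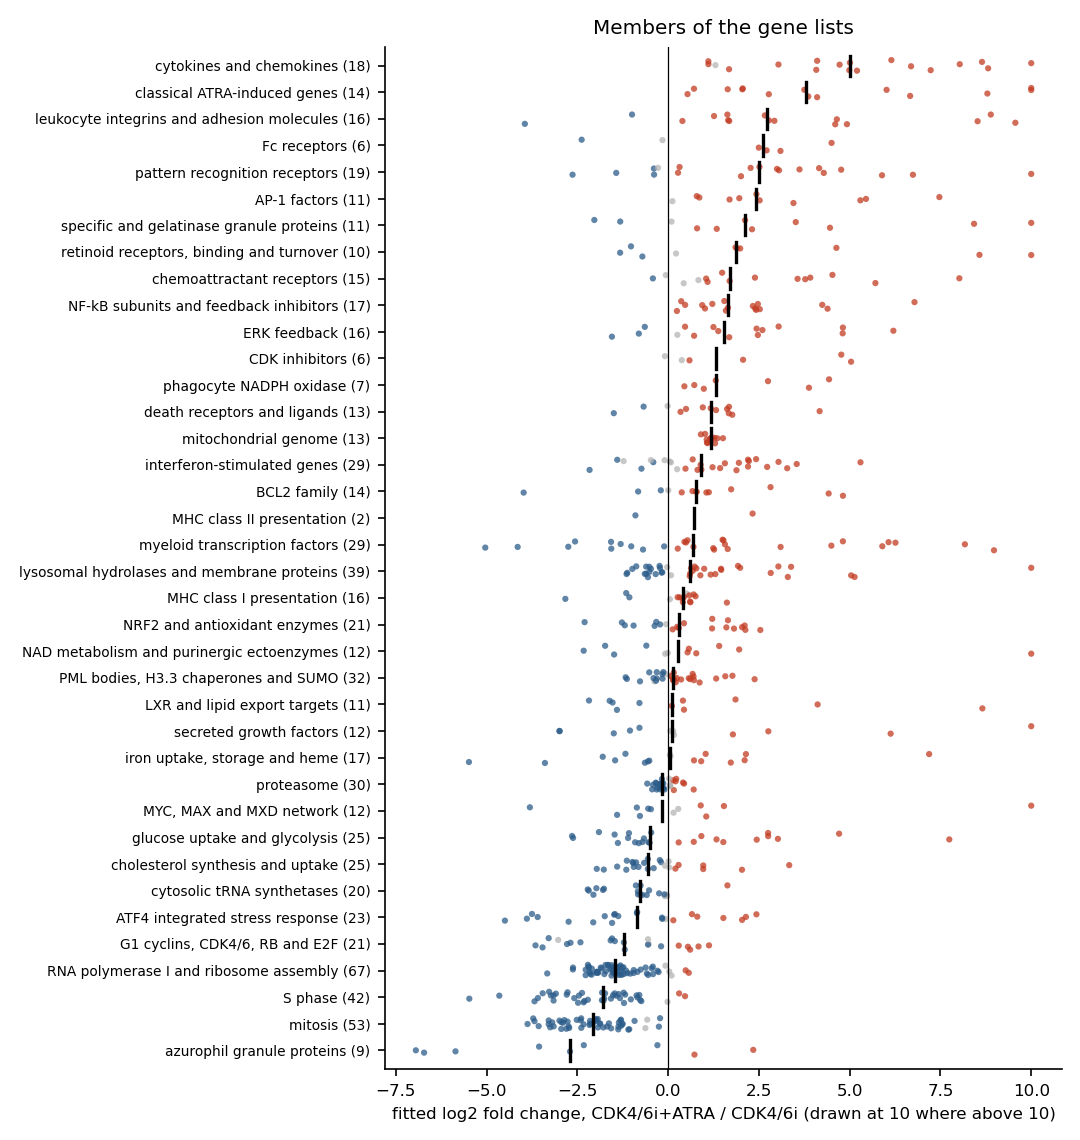
Fitted log2 fold changes of CDK4/6i+ATRA against CDK4/6i for the tested members of the 38 gene lists, with the number tested in parentheses. Each point is 1 gene (red higher, blue lower, gray not called), black bars are medians, and 10 members with a log2 fold change above 10 are drawn at 10. Cytokines and classical ATRA-induced genes have the highest medians (4.998 and 3.81), and azurophil granule proteins and mitosis the lowest (−2.70 and −2.08).

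The ATRA response was examined first in the genes that bind or metabolize retinoids. Of 23 listed genes, 10 were tested, of which 6 were higher and 3 lower (median log2 fold change 1.88). *RARA*, the main retinoic acid receptor of myeloid cells, went from 47.8, 47.0 and 45.1 CPM to 181, 187 and 185 CPM, 3.96-fold higher. *RARG* was 3.62-fold higher, whereas *RXRA*, the dimer partner, went from 197, 193 and 198 CPM to 94.3, 98.2 and 96.6 CPM, 2.03-fold lower. The libraries of the 2 groups did not overlap for these receptors. Enzymes that turn retinaldehyde and retinol over were divided. *DHRS9* and *RDH11* were 24.8-fold and 3.74-fold higher, *STRA6*, a transporter of retinol, at least 59.7-fold higher, and *RDH10* and *RETSAT* 2.50-fold and 1.64-fold lower. *RARB* and *CYP26A1*, which are induced by retinoids in many other cell types, were not tested, with at most 6 and 2 counts in any of the 6 libraries.

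All 14 tested genes of the list of classical ATRA-induced genes were higher, with a median log2 fold change of 3.81. They included *CD38*, an ectoenzyme that breaks down NAD and a marker of ATRA-treated myeloid cells (chr4:15778328-15853232, plus strand), which rose from 0.259, 0.306 and 0 CPM to 409, 395 and 412 CPM. The repressor *HIC1* rose from 0.674, 0.550 and 0.644 CPM to 282, 282 and 279 CPM (443-fold). *PPARG*, a lipid-sensing nuclear receptor, rose at least 31.6-fold, *TNFAIP2* 17.2-fold, *ASB2*, a subunit of a ubiquitin ligase, 14.5-fold, *NRIP1*, a corepressor of nuclear receptors, 13.5-fold and *IRF1* 6.84-fold. The smallest change was that of *CEBPE*, a factor of late granulocytes (1.45-fold).

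A retinoic acid response element of the DR5 type, 2 half-sites in the same direction with 5 bases between them, was searched on both strands of the RefSeq promoters (GRCh38.p14, 250 bases before to 50 after the start). The half-site was AGGTCA, with G also allowed as the first base and T as the third. The element was present in 22 of 27305 promoters (0.0806%) and in 4 of the 9788 tested genes with a promoter (0.0409%). The element of *BATF2*, a factor of the AP-1 family that rose from at most 0.104 CPM to 11.6, 11.7 and 11.2 CPM (at least 67.0-fold), is shown beside that of the untested *RARB*, with the half-sites in capitals. That of *HROB*, a factor of homologous recombination that was lower by a log2 fold change of −2.94, is shown as well. Among the tested genes with a promoter in the table, *BATF2* alone of the 1770 at least 2-fold higher (0.0565%) held the element. *HROB* alone of the 1990 at least 2-fold lower (0.0503%) did so, a similar share. *BATF2* lies on the minus strand (chr11:64990290-64990306) and *RARB* on the plus strand (chr3:25428210-25428226). *HROB* lies on the plus strand, with its element on the opposite one (chr17:44141766-44141782).
BATF2: agcagAGTTCAtgtgaGGGTCAggaag
RARB: ggtagGGTTCAccgaaAGTTCActcgc
HROB: cggctGGTTCAgcactGGTTCAggtga

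Granule genes were split by granule type. Of the 9 tested azurophil (primary) granule genes 7 were lower and 2 higher, with a median log2 fold change of −2.70. After *MPO* and *RNASE2*, the falls were of *RNASE3*, the eosinophil cationic protein (at least 27.4-fold), *CST7*, a cystatin (11.7-fold), the serine proteases *PRSS57* and *CTSG* (6.51-fold and 5.004-fold) and *LYZ*, lysozyme (1.23-fold). *SERPINB1*, listed with them as an inhibitor of neutrophil proteases, rose 5.08-fold, and *BPI*, which kills Gram-negative bacteria, 1.65-fold. Of 11 tested genes of specific and gelatinase granules, 8 were higher and 2 lower (median 2.12). *PADI4*, which is on the list but encodes the enzyme that citrullinates histones and not a granule protein, went from 24.5, 22.2 and 21.4 CPM to 478, 498 and 523 CPM. It made up most of the summed level of the list with CDK4/6i+ATRA, 528 to 578 CPM. *MMP8*, the neutrophil collagenase, rose at least 54.5-fold and *OLFM4* at least 15.9-fold, but reached only 9.35 ± 1.13 and 2.73 ± 0.341 CPM (SD, n = 3). The defining secondary granule genes *LTF* and *LCN2* had no count in the 6 libraries, and *CAMP* had at most 8.

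All 7 subunits of the phagocyte NADPH oxidase, which makes superoxide, were higher (median 1.31). *CYBB*, the catalytic subunit, was at 454, 435 and 456 CPM and rose to 2959, 2978 and 3113 CPM, 6.73-fold. *NCF1*, which has near-identical pseudogenes, rose 14.7-fold and *NCF4* 1.36-fold.

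Surface receptors and adhesion molecules mostly rose. Of 16 tested integrins and adhesion molecules 14 were higher and 2 lower (median 2.72). *ICAM1*, a ligand of leukocyte integrins, went from 3.11, 2.51 and 2.98 CPM to 1063, 1037 and 1088 CPM (368-fold). *ITGAM*, which encodes CD11b, rose 24.3-fold, from 25.4, 24.4 and 22.997 CPM to 604, 578 and 586 CPM. Both genes were higher in every CDK4/6i+ATRA library than in any CDK4/6i library. *ITGAX* and its partner *ITGB2* rose 30.4-fold and 7.602-fold. *SELPLG*, the ligand of P-selectin, went the other way, from 88.6, 85.4 and 81.5 CPM to 4.31, 5.17 and 6.94 CPM, 15.4-fold lower, and *PECAM1* was 1.99-fold lower.

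Of 15 tested chemoattractant receptors 11 were higher, and *CXCR2*, a receptor of CXCL8, was lower (1.34-fold). The rises included *CCR3* (52.3-fold), *C5AR1* (23.01-fold), *CCR1* (15.1-fold), the formyl peptide receptor *FPR1* (13.7-fold) and the leukotriene receptor *LTB4R* (11.8-fold), whereas *CXCR4* was at 181 ± 7.67 and 173 ± 3.09 CPM (SD, n = 3) and was not called. Of 19 tested pattern recognition receptors 14 were higher and 4 lower (median 2.52). *CD36*, a scavenger receptor, had no count under CDK4/6i and rose at least 152-fold, and *TREM1*, *NLRC4*, *TLR8*, *TLR1* and *TLR6* rose 107-, 59.3-, 19.5-, 17.9- and 12.3-fold. *TLR9* was 6.20-fold lower. Of 6 tested Fc receptors, 4 were higher, *FCER1G*, the shared signaling chain, 22.6-fold, and *FCGR1A* was 5.21-fold lower. *FCGR3B*, the Fc receptor of mature neutrophils, had at most 5 counts.

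Marker genes of mature cells showed a mixed picture. Of 6 tested neutrophil markers 5 were higher, led by *S100A9* (39.8-fold, to 5070 ± 187 CPM) and *S100A8* (38.2-fold), and the summed level of the list went from 332 to 350.3 CPM with CDK4/6i to 7474 to 8020 CPM with CDK4/6i+ATRA, while *MME* had at most 2 counts. Of 5 tested monocyte and macrophage markers 4 were higher, among them *CSF1R* and *VSIG4* from the floor (at least 57.1-fold and 19.7-fold) and *CD68* 9.83-fold. The summed level of that list went from 49.8 to 56.7 CPM to 86.3 to 93.7 CPM, with *CD14* at no more than 2 counts and *CD163* at 0. All 5 tested promyelocyte markers and 6 of 7 eosinophil and basophil markers were lower, with *CLC*, the Charcot-Leyden crystal protein, at 1107, 1080 and 1124 CPM and then at 339, 354 and 396 CPM, and *EPX*, eosinophil peroxidase, 47.1-fold lower. Whether these markers moved within the same cells was not tested.

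Cytokine genes showed the highest median of the 38 gene lists, the marker lists left aside. Of 37 listed cytokines and chemokines 18 were tested and 17 were higher. Their median log2 fold change was 4.998, or 4.86 with genes at the floor set to their bounds. *IL1B* went from 14.7, 13.3 and 14.04 CPM to 1442, 1413 and 1499 CPM, 103-fold. *CXCL8*, the neutrophil chemoattractant IL-8, went from 358, 376 and 343 CPM to 6180, 6041 and 6308 CPM, 17.2-fold. *CSF1*, the growth factor of macrophages, rose from at most 0.794 CPM to 177, 169 and 177 CPM, *IL1A* rose 150.2-fold and *CCL20* 32.2-fold. The replicates were close together and the groups did not overlap for any of these genes. *IL1RN*, which blocks the IL-1 receptor, rose from 1.40, 1.28 and 1.46 CPM to 45.7, 48.4 and 38.7 CPM. *IL6*, *CSF2*, *CSF3* and *CXCL10* had at most 2 counts. Secreted growth factors were divided, with 4 higher and 5 lower of 12. *HBEGF*, a ligand of the EGF receptor, rose 69.9-fold and *TGFB1* 3.44-fold, and *HGF* and *TNFSF13B*, the B-cell factor BAFF, were 7.97-fold and 7.94-fold lower.

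All 17 tested NF-kB subunits and feedback inhibitors were higher (median 1.65), 15 of them with library size alone. NF-kB factors drive inflammatory genes and induce their own inhibitors. *NFKBIA*, the inhibitor IκBα, went from 25.2, 26.2 and 23.3 CPM to 127, 123 and 126 CPM, 5.04-fold. *BCL3*, a nuclear cofactor of the family, went from 6.07, 5.62 and 6.44 CPM to 125, 128 and 127 CPM, and *NFKBIZ*, another one, from the floor to 12.2, 13.5 and 8.35 CPM, at least 66.3-fold. Among the subunits, *REL* rose 5.36-fold, *NFKB2* 3.01-fold, *RELB* 2.92-fold, *NFKB1* 1.92-fold and *RELA* 1.38-fold. An NF-kB element of 10 bases, in the forms printed in capitals for *NFKBIZ* and *BCL3* with any base at the fourth and the fifth position, was searched on both strands. It was found in 7 of the 15 list members with a promoter in the RefSeq table (46.7%) in 3.87% of all 27305 promoters and in 4.74% of the 9788 tested genes with a promoter there. It can share bases with the E2F site described further on. The sites of *NFKBIZ* (plus strand, chr3:101827767-101827776), *BCL3* (plus strand, chr19:44748710-44748719) and *NFKBIA* (minus strand, chr14:35404821-35404830) are shown with the element in capitals, most of whose bases were fixed by the search.
NFKBIZ: ttttggtctGGGAATTTCCagtgtgcag
BCL3: ccgggcgccGGGACTTCCCctgcagccg
NFKBIA: tcaggctcgGGGAATTTCCaagccagtc

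Of the 11 AP-1 genes, which encode the dimers that act downstream of MAP kinases, 10 were higher (median 2.43). *JUN* went from 5.45, 5.26 and 4.74 CPM to 238, 220 and 218 CPM (43.7-fold), *FOS* rose 39.2-fold, *FOSL2* 10.9-fold, *JUNB* 5.74-fold and *JUND* 3.89-fold. *FOSB* was at 18.6 ± 1.604 and 20.2 ± 1.46 CPM (SD, n = 3) and was not called. Of 16 tested genes that ERK signaling induces and that feed back on it, 12 were higher and 3 lower (median 1.53). *PHLDA1* rose 73.7-fold, *EGR1* 28.1-fold and *DUSP6*, the phosphatase of ERK, 5.55-fold. *SPRY4*, a Sprouty inhibitor of receptor signaling, went from 3.32, 4.28 and 4.74 CPM to 112, 113 and 118 CPM, 28.0-fold, and *SPRY1* was 2.93-fold lower.

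**Figure D3:**
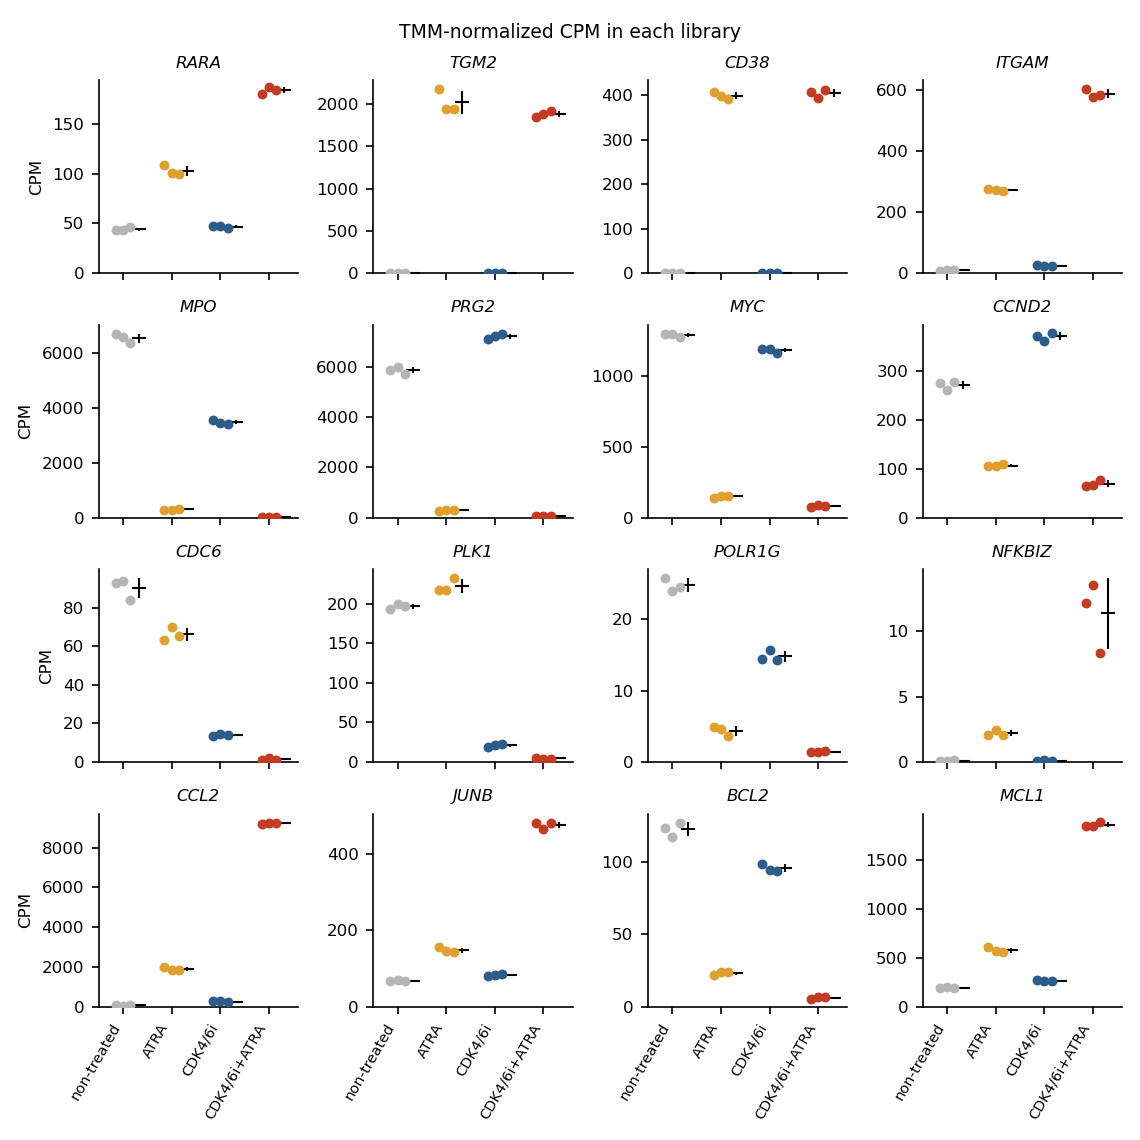
TMM-normalized CPM (linear axes from 0) of 16 genes in each of the 12 libraries, with the group mean and SD (n = 3) beside the points. Groups are non-treated, ATRA, CDK4/6i and CDK4/6i+ATRA. In every panel the CDK4/6i+ATRA libraries lie apart from the CDK4/6i libraries, upward for *CCL2* (9182 to 9239 CPM) and downward for *MPO* (24.5 to 33.9 CPM).

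Transcription factors of the myeloid lineage moved in both directions, with 19 higher and 10 lower of 29 tested, all of them called. Several factors of progenitors were lower. *MYB* went from 364, 377 and 370.3 CPM to 9.90, 11.1 and 12.7 CPM (32.8-fold), *GATA2* from 261, 258 and 263 CPM to 15.8, 13.1 and 15.3 CPM (17.7-fold), and *NFE2*, *LMO2*, *CEBPA* and *GFI1* were 6.73-, 2.97-, 2.96- and 2.48-fold lower. Among those higher were factors of maturing myeloid cells and of the immediate early response. *SPI1*, which encodes PU.1, went from 358, 366 and 361 CPM to 838, 859 and 868 CPM (2.37-fold), *CEBPB* rose 8.56-fold, *BCL6* 59.7-fold and *EGR2* 76.7-fold. *IRF8*, *IRF4*, *HOXA9* and *MEIS1* had at most 3 counts.

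*MYC*, the driver of growth and ribosome production, was 14.01-fold lower. Its CPM was 1190, 1193 and 1166 with CDK4/6i and 77.5, 91.8 and 84.0 with CDK4/6i+ATRA. Its partner *MAX* was 1.82-fold lower, while the antagonists *MXD1* and *MNT* were 2.90-fold and 2.07-fold higher and *MXI1* and *MXD4* 2.65-fold and 1.46-fold lower. *MLXIPL*, the glucose-sensing factor ChREBP of the same network, rose from 0 counts, at least 76.4-fold.

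Most genes of ribosome production were lower as well. Of 67 tested genes of RNA polymerase I and ribosome assembly 62 were lower and 2 higher, against 39.5% lower among all genes, and their median was −1.45 on the log2 scale. The nucleolar proteins *NCL* and *NPM1* went from 1810, 1787 and 1791 CPM to 433, 407 and 415 CPM and from 2433, 2400 and 2358 CPM to 789, 827 and 866 CPM. *POLR1G*, a subunit of RNA polymerase I, had the largest fall, from 14.5, 15.6 and 14.2 CPM to 1.47, 1.43 and 1.49 CPM (10.1-fold), and the largest catalytic subunit *POLR1A* was 2.68-fold lower. *NOP10*, a small nucleolar protein, and *PPAN* were 1.48-fold and 1.40-fold higher, and *RRN3*, *TTF1* and *RRP12* were not called.

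The E-box CACGTG, which MYC and MAX bind, was found in 21 of the 59 list members with a promoter in the table (35.6%), in 7.43% of all promoters, in 10.4% of the tested genes with a promoter and in 14.7% of those at least 2-fold lower. This palindrome reads the same on both strands. The sites of *POLR1G* (plus strand, chr19:45406632-45406637), which begins 12 bases before the start of the gene, *RRP9*, a small nucleolar RNA-binding protein (minus strand, chr3:51941904-51941909), and *MYBBP1A*, a nucleolar partner of RNA polymerase I (minus strand, chr17:4555352-4555357), are shown as those of the 3 members with the largest falls that hold it, with the E-box in capitals. The folds are 10.1, 6.16 and 6.15 downward.
POLR1G: ctttggatcCACGTGgtctgcaac
RRP9: ttcagctgcCACGTGagttctgcg
MYBBP1A: gccggagcaCACGTGtttcgtgtt

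The cytosolic tRNA synthetases, which charge tRNAs with amino acids, were lower in 16 of 20 cases (median −0.76). *AARS1*, *IARS1* and *FARSB* were 4.64-, 4.55- and 4.16-fold lower. *WARS1*, the synthetase for tryptophan and an interferon-responsive gene, was the only one higher, at 218, 205 and 205 CPM and then 625, 652 and 671 CPM. Among 23 tested genes of the ATF4 stress response 15 were lower and 7 higher (median −0.86). The enzymes of serine synthesis *PSAT1* and *PHGDH* were 14.8-fold and 13.5-fold lower, and *PSAT1* went from 84.3, 86.3 and 81.8 CPM to 4.77, 5.17 and 6.94 CPM. *ATF4* itself was at 311 ± 8.01 and 297 ± 22.05 CPM (SD, n = 3) and was not called, while *ATF3*, *PPP1R15A*, *SLC7A11* and *DDIT3* rose 5.39-, 4.41-, 4.10- and 2.87-fold.

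Genes of the cell cycle were lower once ATRA was added. Of the 42 genes of S phase 39 were lower and 2 higher (median −1.80), and of the 53 genes of mitosis 51 were lower and none higher (median −2.08). *MCM2*, a subunit of the replicative helicase, went from 189, 191 and 188 CPM to 18.2, 20.9 and 21.4 CPM (9.37-fold). *CDC6*, which loads that helicase, went from 13.5, 14.4 and 13.99 CPM to 1.19, 1.87 and 1.24 CPM (9.70-fold), and *POLE2*, a subunit of DNA polymerase epsilon, fell to the floor, at least 16.1-fold. All the members of the MCM2 to MCM7 helicase fell, *MCM5* least (4.63-fold) and *MCM4* most (10.97-fold). Of mitotic genes, *BUB1B*, a kinase-like protein of the spindle checkpoint, went from 23.3, 27.6 and 24.2 CPM to 1.47, 2.32 and 1.32 CPM (14.6-fold). *MAD2L1*, *TTK* and *CDC20* of the same checkpoint were 13.1-, 12.8- and 9.78-fold lower, while *MKI67*, the source of the Ki-67 antigen, was only 2.14-fold lower, from 19.6, 22.5 and 20.9 CPM to 11.5, 8.74 and 9.17 CPM. *KIF20A* and *CDC25C* were the mitotic genes not called, at 1.02 and 0.829 CPM on average with CDK4/6i.

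The E2F site TTTCCCGC or TTTGGCGC was found on either strand in 17 of the 36 S phase genes with a promoter in the table (47.2%), in 2.31% of all promoters, in 3.87% of the tested genes with a promoter and in 4.77% of those at least 2-fold lower. The CCAAT box, a common element, was found in 32 of 46 mitotic genes (69.6%), in 35.7% of all promoters, in 36.9% of the tested genes with a promoter and in 41.4% of those at least 2-fold lower. It was also found in 20 of the 36 S phase genes (55.6%), and the E2F site in 4 of the 46 mitotic genes (8.7%). The sites of *CDC6* (plus strand, chr17:40287886-40287893), *MCM6* (minus strand, chr2:135876526-135876533) and *RFC3*, a subunit of the clamp loader (plus strand, chr13:33818094-33818101), and the CCAAT box of *CDC20* (plus strand, chr1:43358926-43358930) are shown with the element in capitals. *MCM6* and *RFC3* were both 8.91-fold lower.
CDC6: ccattcggaTTTGGCGCgagcgcggc
MCM6: ttggtcaggTTTGGCGCgaaatctcc
RFC3: gagacaagtTTTCCCGCgagctccaa
CDC20: ttgaaggagCCAATaggcgctcg

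Upstream of these genes, the G1 machinery was lower in 13 of 21 cases and higher in 5. *CDK4*, one of the 2 targets of palbociclib, went from 75.5, 77.1 and 72.2 CPM to 11.6, 9.54 and 11.4 CPM, 6.89-fold lower, and *CDK6*, the other target, was 2.92-fold lower. *CCND2* went from 372, 362 and 379 CPM to 63.9, 67.3 and 76.9 CPM (5.33-fold), whereas *CCND3* and *CCND1*, the other D-type cyclins, were 2.18-fold and 1.22-fold higher. *CCNE1*, the cyclin that activates CDK2, was 12.6-fold lower, at 19.2, 20.3 and 20.4 CPM and then 2.02, 0.981 and 1.74 CPM. *E2F1* was 11.002-fold lower and *RB1* 1.79-fold higher. Of 6 tested CDK inhibitors 4 were higher. *CDKN2B*, which encodes p15, rose from 1.09, 1.59 and 2.22 CPM to 55.5, 53.3 and 51.0 CPM (32.8-fold), *CDKN1A*, which encodes p21, from 0.830, 0.733 and 0.702 CPM to 23.6, 18.3 and 20.7 CPM (27.3-fold), *CDKN2D* 4.18-fold and *CDKN1B* 1.503-fold.

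Of 14 tested genes of the BCL2 family, which set the threshold of apoptosis, 10 were higher and 3 lower (median 0.78), 9 and 4 with library size alone. *BCL2*, the founding survival gene, went from 98.5, 94.5 and 93.3 CPM to 5.32, 6.42 and 6.36 CPM, 15.8-fold lower. The survival genes *MCL1* and *BCL2A1* rose instead, *MCL1* from 268, 263 and 258 CPM to 1840, 1847 and 1886 CPM (7.06-fold) and *BCL2A1* from 14.2, 15.9 and 15.2 CPM to 417, 415 and 439 CPM (28.1-fold). *PMAIP1*, which encodes the MCL1 antagonist NOXA, rose 21.4-fold, and the pro-apoptotic *BBC3*, *BID*, *BMF*, *BAK1* and *BAX* rose 3.33-, 2.18-, 2.08-, 1.59- and 1.296-fold, *BAX* without a call when library size alone was used. *BCL2L11*, which encodes BIM, was at 93.6 ± 3.12 and 93.8 ± 5.12 CPM (SD, n = 3). Of 13 tested genes of death receptors, their ligands and the adaptors and caspases that they use, 10 were higher and 2 lower (median 1.17), and with library size alone 8 and 3. *TNFRSF10D*, a decoy receptor of TRAIL, rose 18.0-fold and *CASP8*, the initiator caspase, 3.20-fold. The genes lower were the receptor *FAS* (log2 fold change −0.68) and *TNFSF10*, TRAIL itself (2.82-fold).

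Interferon-stimulated genes and MHC class I genes were examined next. Of 29 tested interferon-stimulated genes 19 were higher and 4 lower (median 0.91), and with library size alone 19 and 7 (median 0.64). The share called was thus close to the 78.6% of all genes. *MX2* rose 39.3-fold, *GBP2* 9.70-fold and *IFIT3* 4.596-fold, while *ISG15*, *BST2* and *IFITM1* were 1.33-, 1.66- and 2.64-fold lower. Of 16 tested genes of class I presentation 11 were higher and 3 lower (median 0.42), and with library size alone 7 were higher and 4 lower (median 0.14). The class I heavy chains *HLA-C* and *HLA-B*, like *B2M* also on alternate contigs, were 1.69-fold and 1.63-fold higher and *B2M* 1.198-fold higher. *CALR*, the chaperone calreticulin, went from 3501, 3476 and 3547 CPM to 479, 497 and 503 CPM, 7.12-fold lower.

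The study also concerned PML nuclear bodies, which hold SUMO-modified proteins and the chaperones of the histone variant H3.3. It imaged the bodies and reported a higher signal intensity with CDK4/6i+ATRA. The RNA levels given here measure neither the bodies nor the proteins that they recruit. *PML* was at 105, 101 and 101 CPM with CDK4/6i and at 80.4, 85.8 and 81.3 CPM with CDK4/6i+ATRA, 1.24-fold lower. *SP100*, another component of these bodies, and its paralogs *SP110*, *SP140* and *SP140L* were 2.50-, 2.98-, 5.21- and 3.41-fold higher. *HIRA*, which deposits H3.3, was 2.25-fold lower (130, 126 and 127 CPM against 54.0, 55.1 and 60.7 CPM), and the H3.3 genes *H3-3A* and *H3-3B* were 1.595-fold and 1.28-fold higher. Over the 32 genes of the list 18 were higher and 11 lower, with a median log2 fold change of 0.14 that was −0.14 with library size alone. Under that scaling the small rises of *ATRX*, *RNF4* and *RANBP2*, among others, turned into falls.

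Metabolic genes moved in both directions. Of 25 genes of glucose uptake and glycolysis 11 were higher and 14 lower. The transporter *SLC2A3* (GLUT3) rose from 85.2, 82.3 and 81.1 CPM to 548, 562 and 566 CPM (6.74-fold), while *SLC2A1* (GLUT1) was 2.15-fold lower. The lactate exporter *SLC16A3* (MCT4) rose from 308, 289 and 299 CPM to 1915, 2049 and 2082 CPM (6.75-fold), while *SLC16A1* (MCT1) was 6.26-fold lower. *HK3* and *HK1* rose 26.1-fold and 5.43-fold and *HK2* was 1.75-fold lower, and *LDHA*, lactate dehydrogenase, went from 872, 841 and 818 CPM to 132, 137 and 143 CPM (6.14-fold). The other lactate dehydrogenase *LDHB* and the phosphofructokinases *PFKL*, *PFKM* and *PFKP* were also lower (1.88-, 1.46-, 3.75- and 2.78-fold), while *PFKFB2*, *PFKFB3* and *PFKFB4*, which make the activator of phosphofructokinase, were 214-, 1.63- and 8.13-fold higher. *SLC16A1* and *LDHA* are also on alternate contigs. In NAD metabolism *NAMPT*, the salvage enzyme, rose from 205, 208 and 208 CPM to 821, 809.9 and 780.4 CPM (3.88-fold), together with *CD38*, and *PARP1*, which consumes NAD, was 5.02-fold lower.

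All 13 protein-coding genes of the mitochondrial genome were higher (median 1.17), between 1.87-fold (*ND3*) and 2.85-fold (*CYTB*). *COX1* was at 6446, 6309 and 5571 CPM with CDK4/6i and at 12468, 17087 and 17323 CPM with CDK4/6i+ATRA. The lowest of the latter values is that of replicate 1, and it was still above every CDK4/6i library.

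The effect of ATRA was then set beside its effect without the inhibitor. ATRA alone against non-treated cells changed 9006 genes (67.6%), 4272 higher (32.1%) and 4734 lower (35.5%), and the 2 comparisons share no library. The median size of the log2 fold change over all genes was 0.75 under CDK4/6i and 0.46 without it. Of the 5212 genes higher under CDK4/6i 3540 were also higher and 318 lower with ATRA alone, and of the 5261 lower ones 3914 were also lower and 290 higher. Genes are not independent replicates, and over all those tested the log2 fold changes had a Pearson r of 0.84 and a Spearman rho of 0.80. The difference between the effects was tested as an interaction by edgeR's quasi-likelihood method, adjusted after Benjamini and Hochberg. It was called in 6852 genes (51.4%), 3258 positive (24.5%) and 3594 negative (27%). Library size alone gave 1375 positive interactions and 6061 negative interactions, with the median interaction of all genes at −0.34 rather than −0.02.

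**Figure D4:**
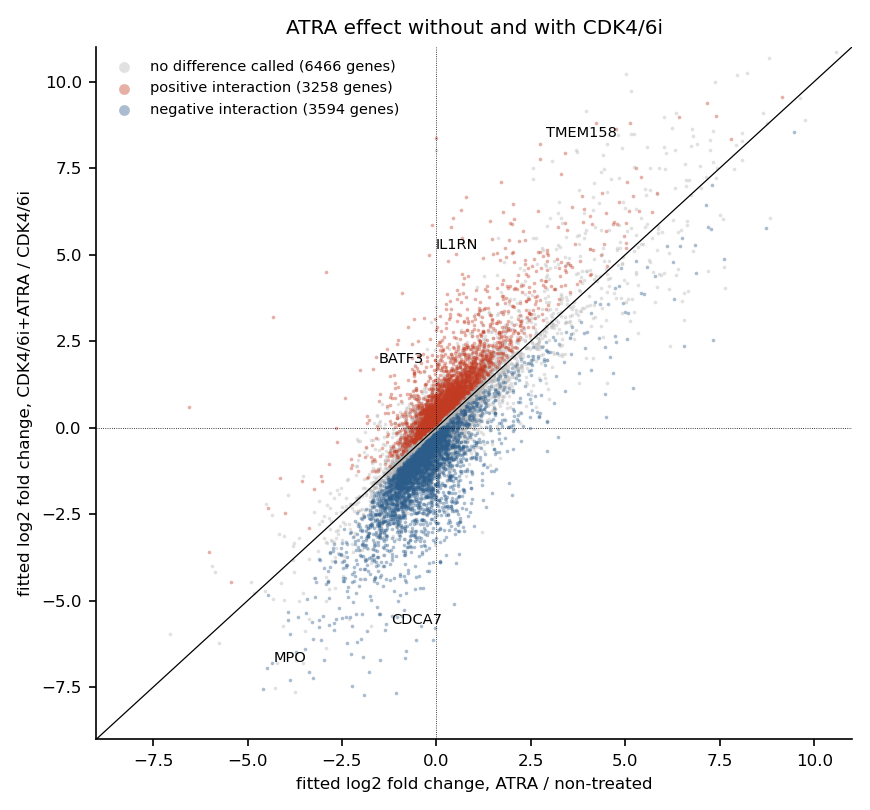
Fitted log2 fold changes of the 13318 genes for ATRA against non-treated (horizontal) and CDK4/6i+ATRA against CDK4/6i (vertical), with the line of equal effects. Red points (3258) had a positive and blue points (3594) a negative interaction, and 17 genes lie outside the axes. Called in both comparisons, 3540 genes lie in the upper right and 3914 in the lower left quadrant, against 318 in the upper left and 290 in the lower right.

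Several signaling and secreted genes had a larger rise with ATRA under CDK4/6i than without it. *TMEM158*, a membrane protein induced by RAS signaling (chr3:45224466-45226287, minus strand), was at 4.63, 3.89 and 3.49 CPM in non-treated cells, 32.6, 25.7 and 22.3 CPM with ATRA, 1.40, 1.65 and 1.35 CPM with CDK4/6i and 420, 445 and 434 CPM with CDK4/6i+ATRA. Its fold under CDK4/6i was 295, and its interaction 5.46 on the log2 scale (SE 0.232, edgeR's adjusted p = 1.6e-25). Each SE given for an interaction is its absolute value divided by the square root of the quasi-likelihood F statistic, not an error from the fit. *IL1RN* was not called with ATRA alone, at 0.721, 0.439 and 1.01 CPM and then 1.11, 0.408 and 0.442 CPM, against the rise under CDK4/6i given above. *NAMPT* was likewise at 159, 165 and 154 CPM in non-treated cells and at 161, 152 and 152 CPM with ATRA, and was not called there. *SPRY4* had an interaction of 4.50 and *JUN* one of 3.97. *BATF3*, a leucine zipper partner of JUN, had opposite effects, falling from 9.56, 8.15 and 7.21 CPM to 3.20, 2.86 and 1.71 CPM with ATRA alone and rising from 3.06, 3.12 and 3.39 CPM to 11.5, 11.2 and 8.35 CPM under CDK4/6i.

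Among the signaling and cytokine lists, positive interactions were found in 15 of 17 NF-kB genes (none negative), 9 of 11 AP-1 genes (1 negative), 9 of 16 ERK feedback genes (2 negative) and 8 of 18 cytokines (none negative), against 24.5% positive and 27% negative among all genes tested. With library size alone the counts were 10 and 2 negative, 7 and 1, 8 and 3, and 7 and 0. Positive interactions were also frequent among the genes of the NRF2 response (14 of 21, 3 negative) and the ATF4 response (13 of 23, 7 negative), with 8 and 7 and with 10 and 8 under that scaling. Negative ones prevailed in class I presentation (10 of 16, none positive) and cholesterol synthesis and uptake (16 of 25, 3 positive), with 13 and 0 and with 22 and 2. All 13 mitochondrial genes had a positive interaction, 12 with library size alone. Of the 7 oxidase genes 3 had a positive and 3 a negative interaction, 2 and 4 with library size alone, from −1.52 (*NCF1*) and −1.23 (*CYBB*) to 0.50 (*CYBA*). *CYBB* was at 130.5, 129 and 135 CPM in non-treated cells and at 2099, 2037 and 2101 CPM with ATRA. *TGM2* and *CD38* reached 1944 to 2178 and 392 to 408 CPM with ATRA alone. The interaction of *CD38* was not called (−0.06, SE 0.704, edgeR's adjusted p = 0.96). That of *TGM2*, which was at no more than 0.0611 CPM in every library without ATRA, had an SE of 3.18 on the log2 scale and was not called either. Both genes were near the floor without ATRA, so the missing calls do not show that the effects were equal.

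Cell cycle genes responded differently in the 2 settings. With ATRA alone the median log2 fold change was −0.35 over the S phase list and 0.30 over the mitosis list, against −1.80 and −2.08 under CDK4/6i. The interaction was negative in 39 of 42 S phase genes and 53 of 53 mitotic genes, against 27% of all genes tested, and in 40 and 53 with library size alone. *MCM2* was at 562, 565 and 545 CPM in non-treated cells and at 380.3, 391 and 391 CPM with ATRA, a smaller fall than under the inhibitor. *MKI67* rose with ATRA alone, from 639, 643 and 707 CPM to 1035, 1043 and 1006 CPM, and fell under CDK4/6i. *NEIL3* was at 76.6, 78.0 and 71.1 CPM in non-treated cells and 53.3, 62.7 and 54.0 CPM with ATRA, then at 22.5, 22.2 and 22.5 CPM with CDK4/6i and 0.367, 0.624 and 0.248 CPM with CDK4/6i+ATRA. Its interaction was the lowest among the genes with at least 5 CPM, −5.34 (SE 0.223, edgeR's adjusted p = 9.8e-26).

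The genes of ribosome production had a median of −1.14 with ATRA alone and −1.45 under CDK4/6i. Of the 67 genes 39 had a negative and 5 a positive interaction, against 27% and 24.5% of all genes tested, and with library size alone 60 had a negative and 3 a positive one. Whether they differed in this from the cell cycle genes was not tested. *MYC* fell from 1301, 1297 and 1278 CPM to 141, 155 and 156 CPM with ATRA alone, and its interaction was −0.71. *SLC25A10*, a mitochondrial dicarboxylate carrier, and *CDCA7* had interactions of −4.36 and −4.49. *CDCA7* was at 208.8, 209.6 and 198 CPM in non-treated cells, at 77.0, 81.3 and 82.6 CPM with ATRA, at 49.3, 51.8 and 51.7 CPM with CDK4/6i, and at or below 1.25 CPM with both.

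**Figure D5:**
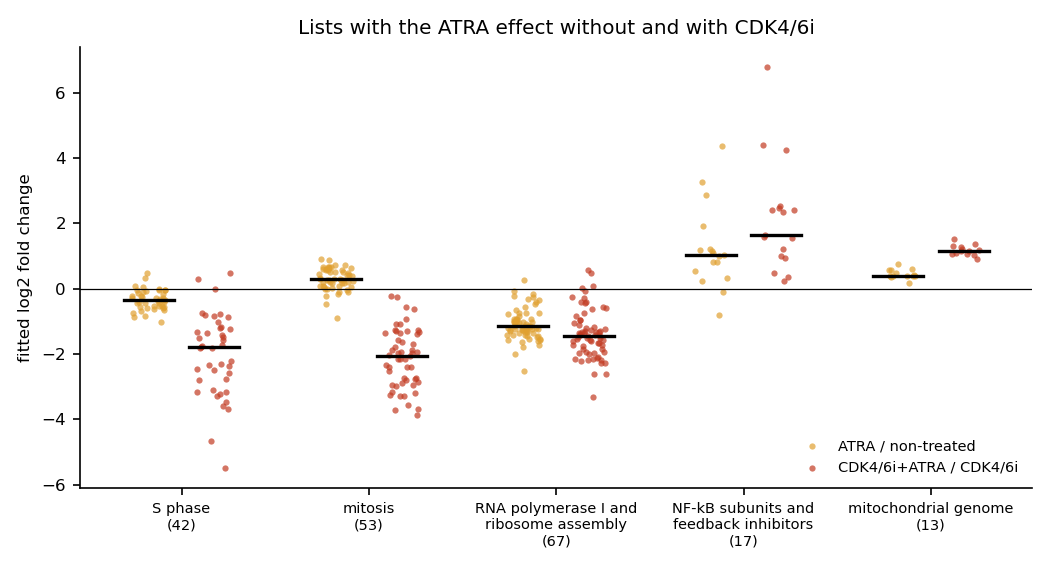
Fitted log2 fold changes of the tested members of 5 lists (number in parentheses) for ATRA against non-treated (yellow) and CDK4/6i+ATRA against CDK4/6i (red), with medians as black bars. The mitosis list moves from a median of 0.30 to −2.08, and the ribosome list from −1.14 to −1.45.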

How the data were processed

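RNA-Seq libraries of 4 groups of HL60 cells (3 each, 48 h) were used. The authors trimmed reads with Trimmomatic 0.33, aligned them with STAR 2.7.11a to hg38 with RefSeq genes, and deposited raw counts per gene, without normalization. They name RSEM, whereas the table has the layout of featureCounts, and the strand setting is not given in the sources used here. Groups were taken from the sample titles. The replicates are labelled biological, and the study describes its gene set analysis of these groups as resting on independent experiments.

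Low genes were removed with filterByExpr. edgeR 4.0.16 under R 4.3.3, with TMM factors and a model of the 4 groups (8 residual degrees of freedom), gave CDK4/6i+ATRA against CDK4/6i, ATRA against non-treated and their interaction by the quasi-likelihood F test, two-sided, with Benjamini-Hochberg adjustment over all genes tested and a threshold of 0.05. Totals of 12230923 to 18679544 counts put 3 counts at 0.161 (largest) to 0.245 CPM (smallest library), before TMM scaling. Molecules were not tagged, so these floors cover counting error only. Libraries of a group differed by more than sampling noise.

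The members, the 38 gene lists and 11 marker lists were chosen with earlier results of these data known. Genes named were list members, the 15 largest rises and falls with groups that did not overlap and at least 5 CPM on average, the 5 highest and lowest interactions and the genes with opposite 2-fold effects at that level, and the 5 genes with most counts per group. Only 9788 of 13318 tested genes had a promoter in the RefSeq table (GRCh38.p14), so motif shares over tested genes cover these alone and are given as descriptions.

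The code was tested on simulated counts. Of the genes tested 708 are listed also on alternate contigs, among them *TNF*, *PADI4*, *NCF4*, *ASB2*, *STRA6*, *RETSAT*, *LTB4R*, *FAM20C*, *NOP10* and *IARS1*, and their levels are uncertain. Alternatives were DESeq2 1.42.0, its size factors, library size alone, other filters, a replicate block, 2 groups only, leaving out each library and, added after seeing the data, leaving out genes on alternate contigs. Figures used matplotlib 3.10.9. Results for some list members are not reported here.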

Additional observations from a re-analysis of the deposited data

Results flagged for a closer look

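The effect of ATRA differed with and without CDK4/6i in 6852 genes by the interaction test. The largest interactions, on the log2 scale, were those of *FAM20C* (5.99), *ADAMTS14* (5.54), *TMEM158* (5.46), *IL1RN* (5.18) and *LIF* (4.66) upward, and of *NEIL3* (−5.34), *TEX15* (−4.69), *CDCA7* (−4.49), *POLE2* (−4.44) and *SLC25A10* (−4.36) downward. *BATF3* changed in opposite directions, with an interaction of 3.38.

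*FAM20C*, a kinase of secreted proteins, had no count with CDK4/6i and was at 54.4, 53.8 and 46.3 CPM with CDK4/6i+ATRA, against 3.45, 2.57 and 2.49 CPM with ATRA alone and at most 0.0601 CPM in non-treated cells. *LIF* was at 11.6, 11.1 and 8.51 CPM with ATRA alone. The interactions of *FAM20C*, *ADAMTS14* and *LIF* are fitted between groups at the floor, and their size depends on few counts. Without CDK4/6i replicate 2, which held the 3 counts of *LIF* in that group, the *LIF* interaction was 7.68 rather than 4.66. The call for *FAM20C* (edgeR's adjusted p = 0.047) was lost with library size alone, with no filter and without each of 7 single libraries, with adjusted p from 0.0052 (DESeq2) to 1 (without non-treated replicate 1) over the alternatives. That for *ADAMTS14* (edgeR's adjusted p = 0.0053) was lost without non-treated replicate 1 (0.086), and was otherwise between 0.0019 and 0.014. Without that library the interactions of *FAM20C* and *ADAMTS14* were 4.18 and 4.68, below those of *TMEM158* (5.34) and *IL1RN* (5.19), so that the order of the largest ones depends on it.

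*TEX15*, a germ-cell gene of meiosis, was at 6.48, 6.11 and 7.26 CPM with CDK4/6i and at the floor with CDK4/6i+ATRA, at least 25.1-fold lower. *POLE2* was at the floor there too, so the size of both interactions depends on few counts. Without CDK4/6i+ATRA replicate 3 the interaction of *TEX15* was −4.12, smaller in size than those of *CDCA7* (−4.25), *SLC25A10* (−4.37) and *POLE2* (−4.41).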

How the results depend on the processing

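Under the 14 alternatives, the 41 genes named by rank kept their direction and call in CDK4/6i+ATRA against CDK4/6i wherever they were tested (547 values). The interaction calls of *FAM20C* and *ADAMTS14* did not hold throughout, as given above. The number of changed genes was 10459 with DESeq2's size factors, 10204 with the DESeq2 test, 10359 with library size alone, 8619 of 10296 with at least 10 counts in every library, 10946 of 28097 with no filter, 10145 of 12518 with only the 2 groups and 9937 of 12610 without genes on alternate contigs, and 10225 to 10360 when each of the 6 libraries was left out. With at least 10 counts in every library, 3345 genes changed at least 2-fold rather than 5131, and library size alone gave 1375 positive interactions and 6061 negative interactions. The first alternative tests fewer genes. The second leaves out the TMM factors, which were 0.840 to 0.893 in the CDK4/6i+ATRA libraries and 1.03 to 1.07 in the other groups. With it the median interaction of all genes moved from −0.02 to −0.34. Which scaling is nearer to the RNA content of the cells was not tested.

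The replicate number as a block gave 10416 changed genes. Same-numbered libraries of the 2 groups did not deviate together (r of −0.0556, −0.0294 and −0.0137 across genes), so the numbers were not taken as pairs.

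With library size alone 10 list members reversed (among them *ATRX*, *GCLC*, *NR1H2*, *PSMB6*, *PSMD11*, *RANBP2*, *RNF4* and *SLC3A2*), 28 lost and 34 gained a call, and the medians of the lists of secreted growth factors, LXR targets, NAD metabolism, PML bodies and iron changed sign. Falls numbered 2 rather than 1 among the chemoattractant and among the Fc receptors, and no S phase gene rose rather than 2. Genes under the floor of 3 counts could not be assessed at this depth, and 3 libraries per group limit the precision.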

Other observations

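Genes of iron handling moved in both directions. *TFRC*, the transferrin receptor, went from 1542, 1521 and 1506 CPM to 140.1, 150.5 and 144 CPM, 10.5-fold lower, and *STEAP3*, which reduces iron in endosomes, was 44.8-fold lower. The ferritin chains *FTH1* and *FTL* were 4.41-fold and 1.64-fold higher, *SLC11A1*, an iron transporter of phagosomes, 3.31-fold higher, and *STEAP4*, a metalloreductase related to *STEAP3*, rose from the floor, at least 38.9-fold. Over the 17 tested genes 7 were higher and 8 lower, with a median log2 fold change of 0.05 that was −0.23 with library size alone.

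Genes of the NRF2 response and of antioxidant defense moved in both directions, with 13 higher and 7 lower of 21 (median 0.29), and 10 and 9 with library size alone (median 0.02). *NQO1*, a quinone reductase and standard NRF2 target, went from 27.0, 24.3 and 23.2 CPM to 133, 149 and 152 CPM (5.81-fold), *SRXN1* rose 4.37-fold and *TXNRD1* 3.13-fold, and all 3 had a positive interaction (2.40, 1.91 and 1.47). *GSR*, glutathione reductase, was 2.32-fold higher, and so was *GPX1* (1.19-fold), whose call was lost and whose sign turned with library size alone (−0.03). *CAT*, catalase, was 4.93-fold, *PRDX1*, a peroxiredoxin, 2.42-fold, *SOD1* 2.29-fold and *TXN*, thioredoxin, 1.25-fold lower. Of 39 tested lysosomal genes 21 were higher and 16 lower, with *CTSD*, cathepsin D, 8.20-fold and *TFEB*, a regulator of lysosomal genes, 35.1-fold higher. Cholesterol synthesis and uptake genes were lower in 16 and higher in 6 of 25, with *EBP* 3.42-fold lower and *STARD4* 10.1-fold higher. Of 11 tested LXR and lipid export genes 6 were higher and 5 lower (median 0.10), and with library size alone 3 and 6 (median −0.18). *ABCA1*, which exports cholesterol, was 17.3-fold and *ANGPTL4*, an inhibitor of lipoprotein lipase, 403-fold higher, and *SCD*, a desaturase, 4.53-fold lower. Of 30 proteasome subunits 19 were lower and 7 higher (median −0.16), and with library size alone 25 were lower and 3 higher (median −0.43).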
